A study of Mus musculus with 54 samples.

Results

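Microglia were followed through 10 genes of the 54232 that the count files list, taken by symbol. They were the homeostatic genes Cx3cr1, P2ry12, Tmem119 and Csf1r, the receptor pair Trem2 and Tyrobp, the complement genes C1qa and C1qb, and the disease-associated genes Cst7 and Apoe. All 10 symbols were matched to a single Ensembl identifier. The genes passed the filter on low counts in both brain cohorts, Cst7 in the younger cohort only through 5 libraries with 4 to 174 counts.

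Brain RNA came from male BL6 mice that received daily intraperitoneal injections for 14 days, either of vehicle or of 22.5 mg/kg Cmpd60, an inhibitor of the histone deacetylases HDAC1 and HDAC2. In the first cohort, mice aged 20 months were given Cmpd60 (6 libraries) or vehicle (6 libraries). In the second, aged 6 to 7 months, APPSWE-1349 mice on the BL6 background were compared with control littermates without the transgene. The transgene codes for a human amyloid precursor protein isoform with the Swedish mutation. APPSWE mice gave 5 vehicle and 4 Cmpd60 libraries, and littermates 5 and 5. Vehicle was a mixture of DMSO, PEG400 and saline, so that every group carried the injections and the solvent. The APPSWE mice were taken at an age before amyloid aggregates are clearly visible, which limits them as a model of plaque-associated microglia. The paper still reports aggregates by staining in some transgenic mice. Their share was larger in untreated than in Cmpd60-treated mice, which the paper presents as tentative. The count files list mouse genes only, and the genotype therefore rests on the labels. A further APPSWE library, s139, is vehicle in its labels and Cmpd60 in the heading of the study's table. It entered no group, and its values are given apart.

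Microglia are the resident macrophages of the brain. At rest they carry a homeostatic programme of receptors that sense neurons and nucleotides and depend on signalling through the receptor of colony-stimulating factor. Near amyloid and with age, microglia can pass into a disease-associated state, in which homeostatic genes fall and genes such as Cst7 and Apoe rise. The full state needs the lipid receptor TREM2 and its signalling adaptor TYROBP (also called DAP12). The initiator of the classical complement cascade, C1q, is made largely by microglia in the brain and marks synapses for removal.

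Cmpd60 acts on enzymes that remove acetyl groups from histones, a mark of active promoters. RefSeq promoters (250 bases before to 50 bases after the start of the gene, build GRCm38.p6) were used for 6 of the 10 genes. The promoter of Csf1r is not reported here. Those of Cx3cr1 and Trem2, the genes with the lowest p-values in the Cmpd60 comparisons below, and of C1qb, a complement subunit, are shown 5′ to 3′ along the gene's strand. Capitals mark GAGGAA or its reverse complement TTCCTC, the core that binds PU.1, the factor that specifies macrophages and microglia.
Cx3cr1, chr9:120068247-120068546, minus strand: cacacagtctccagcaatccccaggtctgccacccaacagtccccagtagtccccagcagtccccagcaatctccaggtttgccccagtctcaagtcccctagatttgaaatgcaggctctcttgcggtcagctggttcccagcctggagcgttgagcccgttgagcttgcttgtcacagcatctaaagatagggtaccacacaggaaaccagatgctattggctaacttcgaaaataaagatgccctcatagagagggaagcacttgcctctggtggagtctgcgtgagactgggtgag
Trem2, chr17:48346151-48346450, plus strand: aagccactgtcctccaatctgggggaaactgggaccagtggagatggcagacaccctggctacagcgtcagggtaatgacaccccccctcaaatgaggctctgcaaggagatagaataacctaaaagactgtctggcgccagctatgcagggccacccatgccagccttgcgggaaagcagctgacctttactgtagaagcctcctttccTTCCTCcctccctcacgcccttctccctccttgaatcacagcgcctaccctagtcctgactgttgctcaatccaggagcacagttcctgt
C1qb, chr4:136886151-136886450, minus strand: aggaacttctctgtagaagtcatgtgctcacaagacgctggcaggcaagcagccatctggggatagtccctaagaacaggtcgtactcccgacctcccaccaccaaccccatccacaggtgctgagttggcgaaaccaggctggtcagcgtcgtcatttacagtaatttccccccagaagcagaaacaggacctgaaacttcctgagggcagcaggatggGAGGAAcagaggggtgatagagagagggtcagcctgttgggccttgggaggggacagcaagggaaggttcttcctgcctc
The letters were found in the promoters of 3 of these 6 genes, Trem2, C1qb and Apoe, and in 28.3% of all 32851 promoters of the same length. The first count is by gene, with a match in any of its promoters, and the share is by promoter. In Trem2 the match starts 40 bases, and in C1qb 30 bases, before the start of the gene.

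Sequencing depth was similar in both cohorts, but the number of genes seen was not. Between 26402957 and 57430113 reads per library fell on genes in the 20-month brain, with 24939 to 28017 genes detected, and each of the 12139 genes with a median of at least 5 CPM (counts scaled to a common library size) was read in every library. In the APPSWE cohort, 25052335 to 55871402 reads fell on genes, 15044 to 24821 genes were detected, and up to 133 of 11920 such genes had no read in a library. Fewer than 18000 genes were detected in 5 libraries, the APPSWE vehicle libraries s140 and s146, APPSWE Cmpd60 library s141, littermate Cmpd60 library s152 and littermate vehicle library s155. Values of Cx3cr1, Tmem119, Trem2 and Tyrobp in this cohort are therefore given with and without these libraries of low detection. Neighbouring microglial markers (Siglech, P2ry13, Gpr34, Fcrls, Olfml3 and Aif1) were all read in each 20-month library, at a summed level of 54.3 to 70.2 CPM with Cmpd60 and 53.6 to 62.3 CPM with vehicle. In the 6 to 7 month brain, they summed to 34.7 to 58.8 CPM over the 4 groups, with Siglech and Aif1 each at 0 in 1 library. Since brain tissue rather than sorted cells was sequenced, fewer microglia, less RNA per microglial cell and the part of the brain taken cannot be told apart.

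The first comparison asked whether Cmpd60 changed microglial genes in the brain of 20-month mice. None of the 10 genes passed the adjusted threshold, and 9 of the 10 had 95% intervals that lay within a 1.5-fold change in either direction, Cst7 being the exception. Cx3cr1, the receptor of the neuronal chemokine fractalkine, had a lowest, median and highest level of 44.5, 46.5 and 49.2 CPM with vehicle and of 40.0, 47.2 and 51.6 CPM with Cmpd60. The Cmpd60 libraries lay on both sides of the vehicle libraries, and the log2 fold change was -0.00 ± 0.06 (SE, n = 6 and 6). P2ry12, the receptor by which microglial processes move towards ADP, ran from 17.2 to 21.1 CPM with vehicle and from 17.3 to 22.9 CPM with Cmpd60 (log2 fold change -0.01 ± 0.08).

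Tmem119, a membrane protein used to tell microglia from other macrophages, had a median of 20.3 CPM with vehicle (18.7 to 22.7) and of 18.8 CPM with Cmpd60 (16.9 to 22.0). Its log2 fold change was -0.10 ± 0.07, with a 95% interval from -0.24 to 0.05. Csf1r, the receptor that microglia need to survive, had a median of 62.96 CPM with vehicle (60.5 to 67.9) and 68.5 CPM with Cmpd60 (62.2 to 73.6). The Cmpd60 libraries reached higher and the groups overlapped, at a log2 fold change of 0.10 ± 0.05 and an adjusted p of 0.382 (edgeR quasi-likelihood test).

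Trem2 was the member with the smallest p at 20 months. The lowest, median and highest levels were 9.26, 11.2 and 13.6 CPM with vehicle and 11.2, 12.8 and 15.0 CPM with Cmpd60. The highest vehicle library stood above 5 of the 6 Cmpd60 libraries. The log2 fold change was 0.22 ± 0.09, with an unadjusted p of 0.0279 and an adjusted p of 0.305 in edgeR's quasi-likelihood test. In the background, 13.8% of the 24438 genes tested had an unadjusted p below 0.05 and 0.0205% (5 genes) an adjusted one, against 1 and 0 of the 10 members. DESeq2 and limma-voom also called 0 of the 10 members. More genes were detected in the Cmpd60 libraries (25850 to 28017) than in the vehicle libraries (24939 to 25861), and with that number as a covariate the Trem2 value was 0.15 ± 0.13 (adjusted p = 0.834). Tyrobp, the adaptor that TREM2 signals through, had medians of 8.12 CPM (7.08 to 9.74) and 8.23 CPM (7.68 to 8.81) and a log2 fold change of 0.01 ± 0.08.

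The complement subunits C1qa and C1qb lay close together between treatments. C1qa had a median of 42.3 CPM with vehicle (40.4 to 52.1) and 44.8 CPM with Cmpd60 (35.7 to 47.2), and C1qb one of 48.6 CPM (44.0 to 58.4) and 50.9 CPM (43.6 to 53.2). Their log2 fold changes were -0.03 ± 0.07 and -0.00 ± 0.07. Vehicle library 30 held the highest level of both subunits.

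Cst7, which encodes cystatin F, an inhibitor of lysosomal cathepsins, was low at 20 months but was read in all 12 libraries, with 11 to 46 counts. Its level was 0.375, 0.651 and 1.01 CPM (lowest, median, highest) with vehicle and 0.775, 0.827 and 1.01 CPM with Cmpd60. Vehicle libraries spread more widely than Cmpd60 libraries, and the log2 fold change of 0.34 ± 0.23 had a 95% interval from -0.14 to 0.81. Apoe, the lipid carrier that astrocytes make in bulk and microglia switch on in disease, had medians of 2054 CPM (1683 to 2235) and 1916 CPM (1485 to 2056), a log2 fold change of -0.11 ± 0.08. None of the 10 genes was free of overlap between the groups, against 0.925% of all genes tested. The members' median log2 fold change was -0.00, beside 0.01 for all genes.

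**Figure D1:**
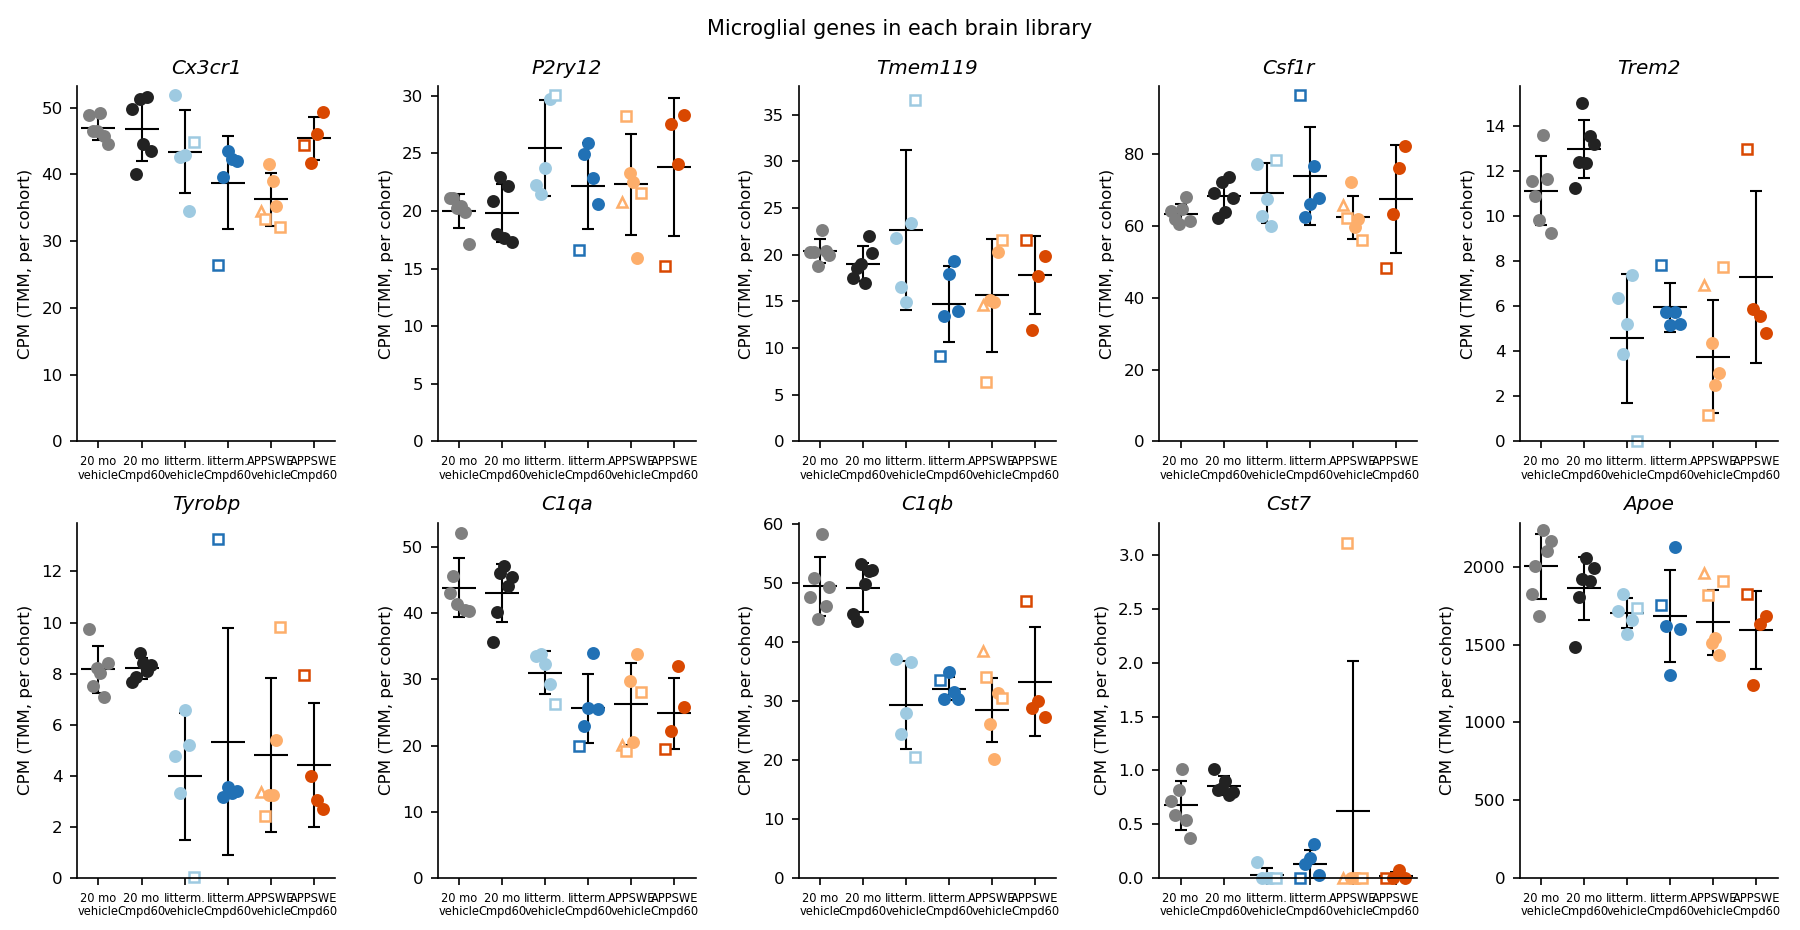
Level of each of the 10 microglial genes in every brain library, in CPM (linear axis, scaled within each cohort), by group. Points are libraries, open squares those with fewer than 18000 genes detected and the open triangle library s139; horizontal bars and whiskers are mean and SD without library s139. The 20-month groups overlap for every gene, Cx3cr1 runs from 41.7 to 49.4 CPM in APPSWE Cmpd60 and from 32.2 to 41.6 CPM in APPSWE vehicle libraries, and Cst7 reaches 3.11 CPM in 1 library.

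Genes around the members were described from 3 further lists. Since brain tissue was sequenced, reads of the listed genes need not come from microglia, and their source was not tested. Mef2c, Fth1 and Clu, named below, had medians of 368, 1566 and 621 CPM with vehicle at 20 months, beside 46.5 CPM for Cx3cr1. Of 19 other homeostatic genes, 12 were higher and 7 lower with Cmpd60 at 20 months, at a median log2 fold change of 0.04, and the lowest p-values belonged to the nucleotide receptor gene P2ry13 (0.23 ± 0.10, adjusted p = 0.310, edgeR) and Entpd1, the gene of the ATP-degrading enzyme CD39 (0.14 ± 0.07, adjusted p = 0.400, edgeR). Of 27 other disease-associated genes tested, 19 were higher and 8 lower, at a median of 0.06. The smallest p-values were those of Ch25h, which makes the oxysterol 25-hydroxycholesterol, with 0.0681 to 0.583 CPM in vehicle and 0.459 to 1.26 CPM in Cmpd60 libraries (1.47 ± 0.36, adjusted p = 0.113, edgeR), and of the lysosomal glycoprotein gene Cd68 (0.28 ± 0.08, adjusted p = 0.178). In neither list did a gene pass the adjusted threshold (0 in edgeR, DESeq2 and limma-voom). At an unadjusted p below 0.05 in edgeR stood 1 and 6 genes, all of them higher, beside 13.8% of all genes in either direction. Of all genes tested, 51.8% had a log2 fold change above 0.

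Among 26 partners of the members (ligands, adaptors, complement components and lipid transporters), 20 were higher and 6 lower, at a median of 0.10. C4b, the complement component cleaved downstream of C1q, had 85.8, 93.4 and 107 CPM (lowest, median, highest) with vehicle and 101, 133 and 147 CPM with Cmpd60. Its log2 fold change was 0.46 ± 0.08 with an adjusted p of 0.0516 in edgeR's quasi-likelihood test. Under 18 alternatives the change of C4b kept its direction at 0.41 to 0.52, and its adjusted p ran from 0.000208 with DESeq2 to 0.416 after adjustment for genes detected, below the threshold in 5: DESeq2, no filter, and without Cmpd60 library 36, Cmpd60 library 37 or vehicle library 29. C4b has a near-identical neighbour, C4a, and how the counting treated reads that match both was not examined. C3ar1, the receptor of the complement fragment C3a, was the 1 partner free of overlap, beside 0.925% of all genes tested. It had 2.58 to 3.49 CPM in vehicle and 3.61 to 4.42 CPM in Cmpd60 libraries (0.39 ± 0.12, adjusted p = 0.176, edgeR). Under 18 alternatives the change of C3ar1 kept its direction at 0.34 to 0.44 and passed the adjusted threshold in 1. The list had 0 genes past the threshold in edgeR, 2 in DESeq2 and 0 in limma-voom, and 7 higher and 3 lower genes at an unadjusted p below 0.05, beside 13.8% of all genes. In the same libraries, 5 of 6 endothelial markers had log2 fold changes above 0, at a median of 0.27 over the 6. At an unadjusted p below 0.05 in edgeR were 3 of them (13.8% of all genes), and 2 were free of overlap (0.925% of all genes). None passed the adjusted threshold in edgeR. The endothelial markers summed to 288 to 419 CPM against 248 to 293 CPM, while 6 choroid plexus markers summed to 228 to 953 CPM against 556 to 778 CPM. Of 6 neuronal markers, 5 had log2 fold changes above 0, 4 at an unadjusted p below 0.05 (13.8% of all genes), none past the adjusted threshold in edgeR. The neuronal markers summed to 5611 to 6949 CPM against 5196 to 6004 CPM. Their part in these differences was not tested.

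**Figure D2:**
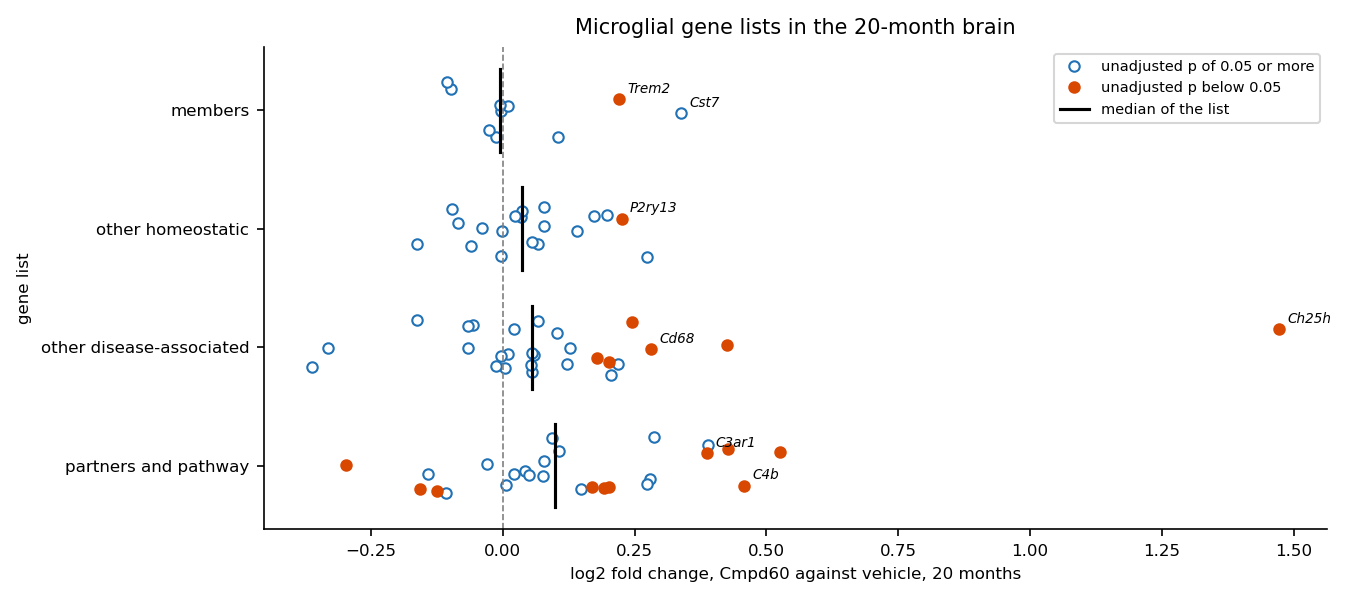
Log2 fold change of Cmpd60 against vehicle in the 20-month brain (horizontal axis) for each gene of 4 lists (rows, jittered vertically). Filled points have an unadjusted p below 0.05, black bars are list medians, from -0.00 for the members to 0.10 for the partners. Ch25h stands farthest right at 1.47, and Trem2 is the only filled point among the members.

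In the second cohort, the members varied more between mice of a group. The common dispersion of the edgeR fit corresponded to a biological coefficient of variation of 0.729, against 0.114 at 20 months. Pooled within groups, the coefficient of variation of a member's CPM was 13.1% for Cx3cr1, 13.6% for Apoe, 18.98% for C1qa and 16.7% for Csf1r, but 51.9% for Trem2 and 68.6% for Tyrobp. At 20 months, it was 11.8% for Trem2 and 8.65% for Tyrobp. Several extremes lay in the libraries with few genes detected. In littermate vehicle library s155, Trem2 and Tyrobp had 1 read each (0.0402 CPM), while Cx3cr1 stood at 44.8 CPM and Tmem119 at 36.5 CPM, the highest of the cohort. In littermate Cmpd60 library s152, Tyrobp reached 13.3 CPM and Csf1r 96.5 CPM, each the highest of the cohort, while Cx3cr1 was at its lowest, 26.5 CPM. Trem2 and C1qb peaked in APPSWE Cmpd60 library s141, at 12.999 and 47.04 CPM.

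**Figure D3:**
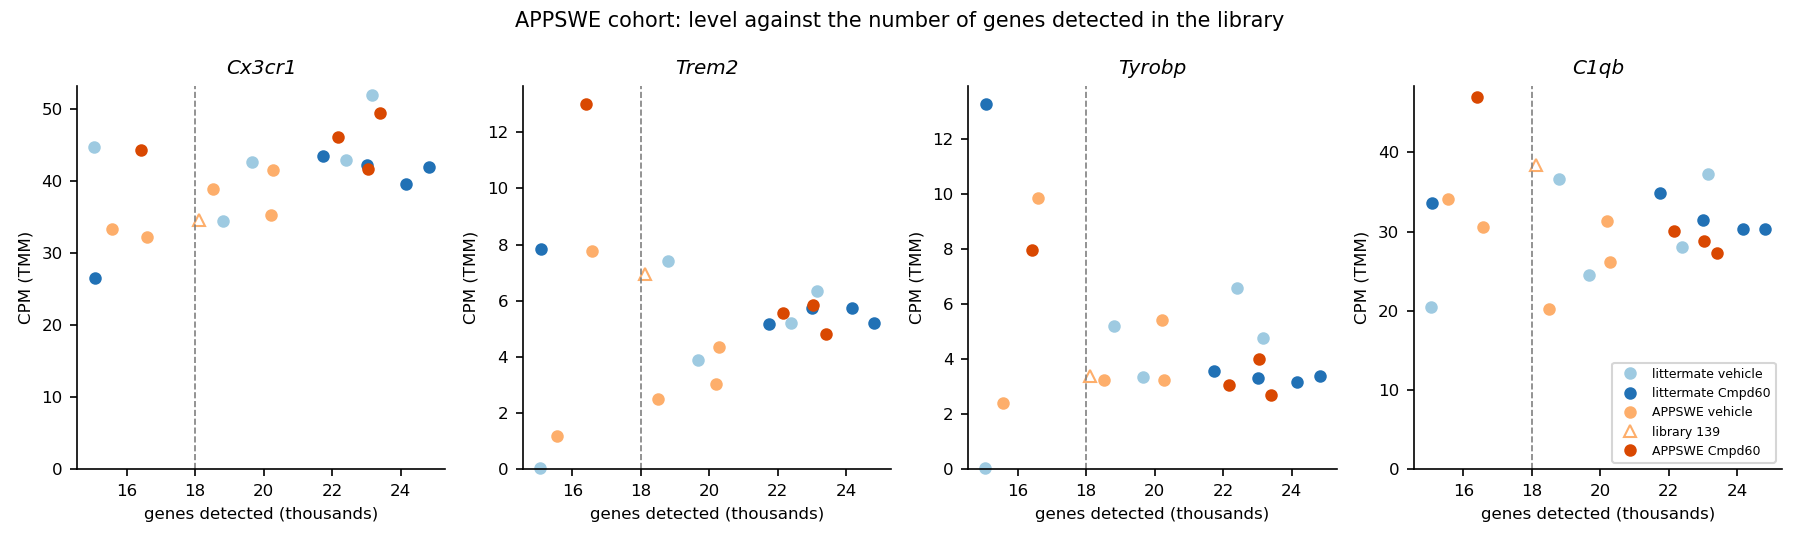
Level of Cx3cr1, Trem2, Tyrobp and C1qb in CPM (vertical axis, linear) against the number of genes detected (horizontal axis) in the 20 libraries of the APPSWE cohort, coloured by group. The dashed line marks 18000 genes. To its left Trem2 spans 0.0402 to 12.999 CPM and Tyrobp 0.0402 to 13.3 CPM, wider than to its right.

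The genotype comparison in vehicle-treated mice asked what the APPSWE transgene did to microglial genes without Cmpd60. No member passed the adjusted threshold in edgeR, DESeq2 or limma-voom, and 8 of the 10 were lower in APPSWE mice, at a median log2 difference of -0.17 beside -0.01 for all genes. Cx3cr1 stood at 33.3, 41.6, 38.9, 35.3 and 32.2 CPM in the APPSWE vehicle libraries and at 52.0, 42.6, 42.9, 34.5 and 44.8 CPM in the littermate ones. Except for 1 littermate library, the littermates lay above all APPSWE libraries. The log2 difference was -0.26 ± 0.15 (95% interval -0.56 to 0.04, adjusted p = 0.663, edgeR quasi-likelihood test), and -0.16 ± 0.12 without the libraries of low detection.

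Tmem119 ran from 6.33 to 21.6 CPM in APPSWE and from 14.9 to 36.5 CPM in littermate vehicle libraries, a difference of -0.53 ± 0.30 that was -0.20 ± 0.20 without the 5 libraries of low detection. The smaller of these values rests on 3 APPSWE and 4 littermate libraries. The other homeostatic members, P2ry12 and Csf1r, differed by -0.19 ± 0.20 and -0.15 ± 0.14, and C1qa, C1qb and Apoe by -0.24 ± 0.19, -0.04 ± 0.19 and -0.05 ± 0.11. Each of these 5 genes overlapped between genotypes.

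Trem2 was read at 1.16, 4.36, 2.49, 3.04 and 7.75 CPM in APPSWE and at 6.36, 3.89, 5.22, 7.40 and 0.0402 CPM in littermate vehicle libraries. Its log2 difference was -0.29 ± 0.66 over all libraries and -0.80 ± 0.27 (adjusted p = 0.400, edgeR) without the libraries of low detection. Tyrobp was at 2.41, 3.24, 3.23, 5.41 and 9.83 CPM in APPSWE and at 4.78, 3.34, 6.57, 5.19 and 0.0402 CPM in littermate libraries, and its difference turned from 0.27 ± 0.71 to -0.33 ± 0.30. Both genes overlapped between genotypes.

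Cst7 had 174 counts (3.11 CPM) in APPSWE vehicle library s140 and no read in the other 4 APPSWE vehicle libraries, against 4 counts in 1 and no read in 4 littermate vehicle libraries. A count of 0 allows up to 0.0537 to 0.120 CPM in this cohort, by the limit of 3 counts and for counting error only. The fitted log2 difference of 4.25 ± 2.05 (unadjusted p = 0.0478, adjusted p = 0.5684, edgeR) depends on the prior count at so low a level and was -3.01 ± 1.76 without library s140 and -3.30 ± 2.17 without the 5 libraries of low detection. It was the only member at an unadjusted p below 0.05, beside 8.67% of the 23194 genes tested, and the adjusted threshold was passed by 0.00862% (2 genes). None of the 10 genes was free of overlap, against 0.638% of all genes.

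Under Cmpd60, the genotype comparison gave 5 members higher and 5 lower in APPSWE mice, at a median log2 difference of 0.00. Cx3cr1 was at 44.4, 41.7, 46.1 and 49.4 CPM in APPSWE and at 26.5, 39.6, 43.5, 42.2 and 42.0 CPM in littermate Cmpd60 libraries. Of the APPSWE libraries, 3 lay above all littermate libraries and 1 within their range, and the difference was 0.23 ± 0.16 (95% interval -0.09 to 0.55), or 0.12 ± 0.12 without the libraries of low detection. Trem2 (0.30 ± 0.70), Tyrobp (-0.27 ± 0.75) and Tmem119 (0.27 ± 0.32) had wide intervals. Without the libraries of low detection they stood at -0.02 ± 0.26, -0.05 ± 0.30 and 0.02 ± 0.20. Without library s141 alone the Trem2 value was -0.14, and without library s152 alone those of Tyrobp and Tmem119 were 0.40 and 0.14. C1qa, C1qb and Apoe lay at -0.04 ± 0.20, 0.05 ± 0.20 and -0.08 ± 0.11. No member had an unadjusted p below 0.05 or groups free of overlap, beside 1.34% and 0.936% of all genes, and 0% of all genes passed the adjusted threshold in edgeR, as in DESeq2 and limma-voom (0 genes each).

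The third question was whether Cmpd60 changed microglial genes in APPSWE mice. Cx3cr1 was the member that separated the groups, since each of the 4 Cmpd60 libraries (41.7 to 49.4 CPM) stood above each of the 5 vehicle libraries (32.2 to 41.6 CPM). The lowest Cmpd60 and the highest vehicle library were 41.7 and 41.6 CPM. The log2 fold change was 0.32 ± 0.16 (95% interval 0.01 to 0.64), with an unadjusted p of 0.0465 and an adjusted p of 0.517 in edgeR's quasi-likelihood test. Groups were free of overlap in 2.31% of all genes and an unadjusted p below 0.05 was reached by 9.46%, while 0% passed the adjusted threshold (22 genes in DESeq2 and 0 in limma-voom). Cx3cr1 stood at 34.5 CPM in library s139, within the range of the vehicle libraries. The change was 0.34 ± 0.15 (adjusted p = 0.486) with this library as vehicle, 0.25 ± 0.15 (adjusted p = 0.613) with it as Cmpd60, in which case the groups overlap, and 0.24 ± 0.13 (adjusted p = 0.505) without the libraries of low detection.

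The vehicle group held 2 and the Cmpd60 group 1 of the libraries of low detection, and the number of genes detected ran from 15555 to 20277 among the APPSWE vehicle libraries and from 16402 to 23402 among the Cmpd60 ones. With that number as a covariate, the Cx3cr1 change was 0.21 ± 0.14 (adjusted p = 0.595). Trem2 was at 12.999, 5.86, 5.55 and 4.81 CPM with Cmpd60, each above 4 or more of the 5 vehicle libraries, and at 6.95 CPM in library s139. Its change of 0.96 ± 0.70 had a 95% interval from -0.47 to 2.39, and was 0.71 ± 0.28 (adjusted p = 0.403) without the libraries of low detection. Tyrobp was at 7.96, 3.99, 3.07 and 2.68 CPM, with a value of -0.12 ± 0.75. It was 0.31 without vehicle library s146, -0.57 without Cmpd60 library s141 and -0.28 ± 0.32 without the libraries of low detection.

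Among the other members, P2ry12 (0.09 ± 0.21), Tmem119 (0.19 ± 0.32), Csf1r (0.11 ± 0.15), C1qa (-0.08 ± 0.20), C1qb (0.22 ± 0.20) and Apoe (-0.04 ± 0.11) overlapped between treatments. Without the libraries of low detection, P2ry12 was at 0.37 ± 0.16 (adjusted p = 0.436, edgeR), Tmem119 at -0.03 ± 0.21 and C1qb at 0.15 ± 0.16, and without library s141 alone C1qb was at 0.01. Cst7 had 2 counts in 1 of the 4 Cmpd60 libraries and no read in 3, and its unadjusted p was 0.0480 (adjusted p = 0.521, edgeR). The Cst7 value turned from -4.83 ± 2.33 to 2.44 ± 1.70 without vehicle library s140. In all, 6 members were higher and 4 lower with Cmpd60, at a median of 0.10 beside 0.03 for all genes, and 0 passed the adjusted threshold in edgeR, DESeq2 or limma-voom.

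In littermates, the Cmpd60 comparison had 5 members higher and 5 lower, at a median of 0.04 beside 0.02 for all genes. Tmem119 had the smallest p. It was read at 21.8, 16.5, 14.9, 23.4 and 36.5 CPM with vehicle and at 9.09, 13.4, 17.9, 19.4 and 14.0 CPM with Cmpd60. The highest vehicle library (s155) and the lowest Cmpd60 library (s152) both had few genes detected. The log2 fold change of -0.62 ± 0.30 (95% interval -1.24 to 0.00, adjusted p = 0.999, edgeR) was -0.25 ± 0.18 without the libraries of low detection. The Cx3cr1 value was -0.16 ± 0.15, and -0.04 ± 0.11 without them.

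Csf1r (0.10 ± 0.14), P2ry12 (-0.20 ± 0.20), C1qa (-0.28 ± 0.19), C1qb (0.13 ± 0.19) and Apoe (-0.02 ± 0.11) overlapped between the littermate groups. Tyrobp was at 0.0402 to 6.57 CPM with vehicle and at 3.16 to 13.3 CPM with Cmpd60, and its value of 0.42 ± 0.71 turned to -0.57 ± 0.28 without the libraries of low detection. Trem2 had 5.18 to 7.83 CPM with Cmpd60 and 0.0402 to 7.40 CPM with vehicle (0.37 ± 0.66), and its value was 0.06 without library s155 and -0.06 ± 0.24 without the libraries of low detection. Cst7 was read in 4 of the 5 Cmpd60 libraries with 1 to 8 counts, and in 1 of the 5 vehicle libraries with 4 counts. No member passed an adjusted or unadjusted p of 0.05 in edgeR, where 0% and 3.67% of all genes did, and none was free of overlap, against 0.509%. DESeq2 gave 0 members and 4 genes of all past the adjusted threshold and limma-voom 0 and 0, and DESeq2 gave 1 member at an unadjusted p below 0.05.

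The interaction, for which no member passed the adjusted threshold in edgeR, DESeq2 or limma-voom, asked whether Cmpd60 acted differently in APPSWE mice and littermates. Cx3cr1 was higher with Cmpd60 in APPSWE mice by 0.32 and lower in littermates by a value of -0.16, and the difference between these effects was 0.49 ± 0.21 (95% interval 0.05 to 0.93, unadjusted p = 0.0314, adjusted p = 0.960, edgeR). Both effects were computed in 1 fit. Without the libraries of low detection the difference was 0.28 ± 0.17 (adjusted p = 0.907). Over 28 alternatives it remained above 0, from 0.28 to 0.56, with adjusted p-values from 0.703 to 1.

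For Tmem119 the difference was 0.80 ± 0.44, and 0.22 ± 0.28 without the libraries of low detection. The intervals of Trem2 (-1.39 to 2.56) and Tyrobp (-2.67 to 1.58) were wide and held 0. Without the libraries of low detection, Trem2 went from 0.58 ± 0.96 to 0.78 ± 0.37 and Tyrobp from -0.55 ± 1.03 to 0.28 ± 0.42. Cst7 was the other member at an unadjusted p below 0.05 (0.0294, adjusted p = 0.960, edgeR). Its value of -6.85 ± 2.97 became 0.43 without library s140, and at so few counts neither value is well determined. Of all genes, 5.09% reached that level and 0% the adjusted one (4 genes in DESeq2, 0 in limma-voom).

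**Figure D4:**
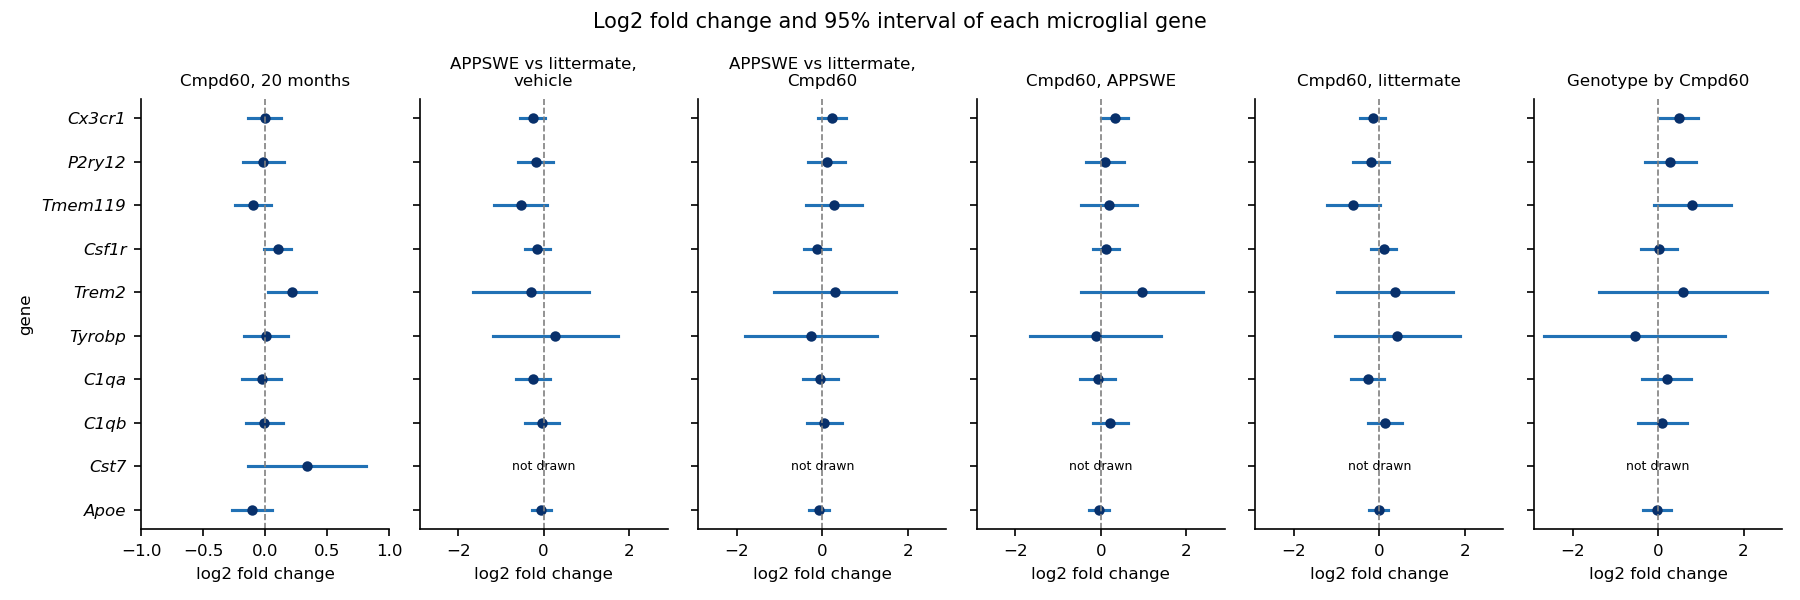
Log2 fold change (points) and 95% interval (lines) of each member in the 6 comparisons, 1 panel each. The horizontal axis runs from -1 to 1 in the 20-month panel and is wider in the others, where Cst7 is not drawn because it was read in few libraries. Intervals are narrowest at 20 months and, of those drawn, widest for Trem2 and Tyrobp in the younger cohort.

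The further lists gave no gene past the adjusted threshold in any comparison of the APPSWE cohort (0 in edgeR, DESeq2 and limma-voom). Of 19 other homeostatic genes, 0, 0, 0, 0 and 1 had an unadjusted p below 0.05 in the genotype comparisons with vehicle and with Cmpd60, the Cmpd60 comparisons in APPSWE mice and in littermates, and the interaction, beside 8.67%, 1.34%, 9.46%, 3.67% and 5.09% of all genes. Their median values were 0.15, 0.06, 0.02, 0.03 and 0.02. Adgrg1, an adhesion receptor gene of microglia and other glia, was the gene in the interaction (0.36 ± 0.17, adjusted p = 0.966, edgeR). It was also among the 2 smallest p-values for Cmpd60 in APPSWE mice (0.25 ± 0.13) and for genotype with vehicle (-0.22 ± 0.12) and with Cmpd60 (0.15 ± 0.13). The others were Tgfbr1, a receptor of the TGF-beta signal that keeps microglia homeostatic, for genotype with vehicle (-0.41 ± 0.21), Irf8, a transcription factor gene of microglia, for genotype with Cmpd60 (-0.65 ± 0.56) and for Cmpd60 in littermates (0.85 ± 0.53), Mef2c for Cmpd60 in littermates (0.20 ± 0.13), and the sialic acid receptor gene Cd33 for Cmpd60 in APPSWE mice (-0.89 ± 0.54) and the interaction (-1.25 ± 0.74). Several of these values rest on single libraries of low detection. Without library s152, the Irf8 values were 0.15 and 0.05, and without library s140 those of Cd33 were 0.04 and -0.32. Without all 5 such libraries, Tgfbr1 was at -0.02 ± 0.13, Irf8 at 0.20 ± 0.31 and -0.11 ± 0.29, Cd33 at 0.15 ± 0.30 and 0.05 ± 0.40, and Adgrg1 in the interaction at 0.19 ± 0.17.

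Of 26 other disease-associated genes tested, 2, 0, 3, 1 and 0 had an unadjusted p below 0.05 in the same order, against the same shares of all genes, at medians of 0.03, -0.07, -0.02, 0.08 and -0.09. For genotype with vehicle, the class I light chain gene B2m had -0.62 ± 0.28 (adjusted p = 0.537, edgeR). Ch25h had no read in the 5 APPSWE vehicle libraries, 0 to 0.355 CPM in the littermate vehicle libraries and 0 to 0.155 CPM in the APPSWE Cmpd60 libraries, and is given no fold. It was among the 2 smallest p-values for genotype with vehicle, for Cmpd60 in APPSWE mice and in the interaction. The ferritin heavy chain gene Fth1 had -0.25 ± 0.10 for Cmpd60 in APPSWE mice (adjusted p = 0.444, edgeR). The tetraspanin gene Cd9 had 0.38 ± 0.18 for Cmpd60 in littermates and -0.26 ± 0.19 for genotype with Cmpd60. Spp1, the gene of osteopontin, had -0.46 ± 0.27 for genotype with Cmpd60 and -0.70 ± 0.36 in the interaction, and the receptor kinase gene Axl 0.19 ± 0.13 for Cmpd60 in littermates. Without the libraries of low detection, B2m was at -0.36 ± 0.22, Axl at 0.05 ± 0.10 and Cd9 in littermates at 0.21 ± 0.13.

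Of 26 partners, 3, 0, 2, 1 and 2 had an unadjusted p below 0.05 in the same order (all genes 8.67%, 1.34%, 9.46%, 3.67% and 5.09%), at medians of -0.02, 0.06, 0.04, 0.01 and -0.02. Ctss, a lysosomal protease of microglia, was at 38.8 to 49.7 CPM in APPSWE and 49.4 to 82.6 CPM in littermate vehicle libraries (-0.46 ± 0.14, adjusted p = 0.509, edgeR), and had -0.16 ± 0.14 for Cmpd60 in littermates. Laptm5, a lysosomal membrane protein gene of immune cells, was at 9.45 to 21.5 CPM with vehicle and 18.3 to 27.8 CPM with Cmpd60 in APPSWE mice (0.67 ± 0.26, adjusted p = 0.444, edgeR), and had 0.78 ± 0.36 in the interaction. These values were 0.27 ± 0.21 and 0.17 ± 0.27 without the libraries of low detection. The DAP10 adaptor gene Hcst had no read in the 5 APPSWE vehicle libraries, 0.0360 to 1.68 CPM in the 4 APPSWE Cmpd60 libraries and 0 to 0.284 CPM in the littermate vehicle libraries, and is given no fold there. For genotype with Cmpd60, Hcst had 2.12 ± 1.63 and Clu, the gene of the lipid carrier clusterin, -0.16 ± 0.10. The Hcst value was 0.09 without library s141 and -0.25 ± 1.51 without the libraries of low detection. Abca1, the cholesterol exporter that loads APOE, had 0.31 ± 0.14 for Cmpd60 in littermates (adjusted p = 0.999, edgeR), and 0.14 without library s152. Groups were free of overlap for 2 partners (Hcst and C1s1) with Cmpd60 in APPSWE mice, against 2.31% of all genes. In littermates they were so for 1 disease-associated gene (Ank), against 0.509%. C1s1 and Ank were named after their values were seen. The separation of Hcst is not established, since its lowest Cmpd60 value of 0.0360 CPM lies below what a count of 0 allows in the vehicle libraries. By the limit of 3 counts, that was up to 0.0537 to 0.111 CPM. In the APPSWE groups, 6 choroid plexus markers summed to 367 to 575 CPM with Cmpd60 and 396 to 1570 CPM with vehicle, and 7 markers of border-associated macrophages, a further brain macrophage, to 9.95 to 15.5 and 3.67 to 13.6 CPM. All 7 of these macrophage markers had log2 fold changes above 0 with Cmpd60, at a median of 0.54. At an unadjusted p below 0.05 in edgeR were 0 of them (9.46% of all genes). Of 6 oligodendrocyte markers, all 6 had log2 fold changes below 0 with Cmpd60 in APPSWE mice. At an unadjusted p below 0.05 were 3 of them (9.46% of all genes), and none passed the adjusted threshold in edgeR. The oligodendrocyte markers summed to 5640 to 7289 CPM with Cmpd60 and 6618 to 7419 CPM with vehicle. Their part in these values was not tested.

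Members were also compared with one another across mice, within groups and with no test. At 20 months (12 libraries), log2 levels of C1qa and C1qb had a Pearson r of 0.845, those of Cx3cr1 and P2ry12 0.846, and those of Trem2 and Tyrobp 0.115. In the APPSWE cohort (19 libraries), the same pairs had -0.0368, 0.193 and 0.946. Over the 14 libraries with at least 18000 genes detected, they had 0.385, -0.173 and 0.292, so that the value for Trem2 and Tyrobp rests on the libraries of low detection. The points share library preparation and depth.

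The genes most alike to the mean of 8 members (all but Cst7 and Apoe) were ranked by Pearson r over the libraries of each cohort, with groups pooled and no test. At 20 months, among 15415 genes, they were Lrrn2 (0.915), Gps1 (0.903), Sfpi1, the gene of PU.1 (0.880), Ddost (0.860), Cyth4 (0.850), Klf16 (0.848), Ctss (0.847), Adra2c (0.847), Psmd3 (0.844) and 1700037H04Rik (0.837). Spearman's rho was 0.811 to 0.951 for these 10, and r was 0.814 to 0.922 without library 34, where the mean was lowest. In the APPSWE cohort, they were Dennd3 (0.944), Usp40, Mrpl21, Tnfaip3, Zufsp, Hbxip, Ebf4, Abcd3, Adamtsl1 and Tnfrsf1a (0.905), with a Spearman's rho of 0.365 to 0.849. Without library s155, where the mean was lowest, r was 0.6948 to 0.82896.

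Levels in the other tissues of 20-month mice place the members outside the brain, over all libraries scaled together and with both treatments pooled. P2ry12 had a median of 18.8 CPM in brain (12 libraries), 0.482 CPM in kidney (11) and 2.75 CPM in heart (11). The ranges, 15.9 to 21.9, 0.101 to 1.23 and 1.91 to 4.63 CPM, did not overlap. Cx3cr1 had medians of 43.2, 18.0 and 6.19 CPM, and the kidney and brain ranges met (13.3 to 40.0 against 37.5 to 49.5 CPM).

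Tmem119, by contrast, had 18.7 CPM in brain and 17.8 CPM in kidney, with overlapping ranges (15.9 to 21.1 and 12.3 to 28.8 CPM), and 5.59 CPM in heart. Csf1r, which all tissue macrophages carry, had medians of 60.0, 68.3 and 68.2 CPM, C1qb of 46.4, 31.4 and 60.0 CPM, and Tyrobp of 7.71, 6.74 and 6.85 CPM, each with ranges that overlapped between the tissues. Trem2 had 11.2, 1.67 and 3.37 CPM, and the lowest brain library (8.60 CPM) lay above the highest of the other tissues (6.36 and 4.83 CPM). Apoe had 1856, 417 and 585 CPM.

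On the same scale, the younger brain (19 libraries) had medians of 5.12 CPM for Trem2, 3.33 for Tyrobp, 24.8 for C1qa, 28.4 for C1qb and 0 for Cst7, against 11.2, 7.71, 41.2, 46.4 and 0.760 CPM at 20 months. Cx3cr1 (38.5 and 43.2), Tmem119 (16.8 and 18.7) and Csf1r (61.7 and 60.0) had closer medians. The cohorts differ in age and number of genes detected, and the younger one pools APPSWE mice with littermates. These differences, and any other between the cohorts, cannot be told apart here, and no test was made.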

How the data were processed

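The authors deposited raw counts per Ensembl gene and library, made with Trimmomatic 0.32 for trimming, HISAT2 2.1.0 for alignment and HTSeq 0.11.0 for counting by read direction. The genome build is not given in the sources used here. From the 54 libraries, 31 brain libraries were fitted, 12 at 20 months and 19 in the APPSWE cohort, after removal of 5 summary lines (18.2% to 21.9% and 15.4% to 19.5% of reads). Library s139, whose treatment is stated in 2 ways, was left out. The treatment field of the kidney labels contradicts the titles, so kidney and heart were used with treatments pooled. Counts were TMM-normalized and tested with edgeR 4.0.16 (quasi-likelihood test, Benjamini-Hochberg over all genes tested, R 4.3.3), with 1 fit per cohort and a filter that kept a gene only if 3 or more fitted libraries exceeded 2 counts. CPM used TMM library sizes per cohort, and log2 CPM a prior count of 2. Each library is taken as 1 mouse; p-values measure the spread between libraries. Values after ± are standard errors, in edgeR the absolute log2 fold change divided by the square root of its F statistic, and intervals cover 95%. For genes read in few libraries, such as Cst7 in the APPSWE cohort, these errors are rough.

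Alternatives were DESeq2 1.42.0, limma-voom (limma 3.58.1), DESeq2 size factors, no filter, at least 10 counts, an adjustment for genes detected per library, each library left out, library s139 in either group and only the 2 groups compared. Leaving out libraries with fewer than 18000 genes detected was chosen after seeing the data. The tests were checked on simulated counts. The members and lists were chosen with earlier results of these data known. Of the further lists, 2 genes are not reported here and were left out of every list count, median and sum. From each further list, genes past the adjusted threshold, or otherwise the 2 with the smallest p, were named for each comparison. Genes ranked by similar levels needed a mean of at least 1 CPM. No 2 libraries were identical.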

Additional observations from a re-analysis of the deposited data

Results flagged for a closer look

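In 9 of 60 combinations of a member and a brain group, the highest or lowest library lay apart from the others by Dixon's criterion. For normally distributed values, chance meets it in about 1 of 20 groups. The flags of Cst7 met it whatever the level, because every other library of the group had no read. The 9 of 60 can therefore not be set against that rate. Of the 9 flagged values, 6 were in libraries with fewer than 18000 genes detected and 1 was in the 20-month brain. At 20 months, P2ry12 was at 17.2 CPM in vehicle library 32, below the other 5 (19.9 to 21.1 CPM).

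In the APPSWE cohort, Cst7 was at 3.11 CPM in APPSWE vehicle library s140, 0.0777 CPM in APPSWE Cmpd60 library s147 and 0.147 CPM in littermate vehicle library s149, each with no read in the rest of its group; the counts were 174, 2 and 4. Trem2 was at 12.999 CPM and C1qb at 47.04 CPM in APPSWE Cmpd60 library s141, above 4.81 to 5.86 and 27.3 to 30.0 CPM in the other 3. Littermate Cmpd60 library s152 held 3 such values, with Cx3cr1 low at 26.5 CPM (others 39.6 to 43.5), Trem2 high at 7.83 CPM (others 5.18 to 5.75) and Tyrobp high at 13.3 CPM (others 3.16 to 3.57).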

How the results depend on the processing

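No member passed the adjusted threshold in any comparison under any alternative run. Each median log2 fold change of the members moved by less than the spread between replicates. That spread was the SD of the members' mean log2 CPM, 0.0926 at 20 months and 0.292 in the APPSWE cohort. Since it exceeded every such median in size, the rule could not tell whether a median kept its size or sign. Counts over all genes with adjusted p below 0.05 did move. At 20 months, 5 became 429 with DESeq2, 2 with limma-voom, 102 with no filter, 0 after adjustment for genes detected (the covariate), and 1 to 372 with a library left out (372 without vehicle library 29). For genotype with vehicle, 2 became 20 with DESeq2, 7 in libraries with at least 18000 genes, and 1 to 4 with a library left out. For genotype with Cmpd60, 0 became 5 in libraries with at least 18000 genes. For Cmpd60 in APPSWE mice, 0 became 22 with DESeq2, 8 with no filter, 1 with only the 2 groups and 3 in libraries with at least 18000 genes; in littermates, 4, 2 and 1 with DESeq2, no filter and at least 18000 genes, and 0 to 2 with a library left out; for the interaction, 4 and 2 with DESeq2 and no filter, and 0 to 1 with a library left out. The causes were not tested.

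Members with an unadjusted p below 0.05 numbered 1 at 20 months, 0 with the covariate and 0 to 2 with a library left out (0 without library 29, 32 or 35, 2 without 30, 31, 34 or 36). For genotype with vehicle, 1 became 0 with DESeq2, at least 10 counts, the covariate, library s139 as vehicle and only the 2 groups, and 0 to 2 with a library left out (0 without library s140, s150 or s155, and 2 without s146). For Cmpd60 in APPSWE mice, 2 became 1 with DESeq2, limma-voom, no filter, at least 10 counts, library s139 as vehicle or as Cmpd60 and only the 2 groups, 0 with the covariate, and 0 to 2 with a library left out (0 without library s140, s141 or s148, 1 without s143, s145, s146 or s147). In littermates, 0 became 1 with DESeq2, DESeq2 size factors, no filter, the covariate, library s139 as vehicle or as Cmpd60 and only the 2 groups, and 0 to 1 with a library left out (1 without library s149, s150, s151, s156 or s157). For the interaction, 2 became 1 with DESeq2, limma-voom, at least 10 counts, library s139 as Cmpd60 and at least 18000 genes, and 0 to 3 with a library left out (0 without library s148, 3 without s146).

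Values of single genes changed sign in places, all of them with an adjusted p above 0.05 as reported and under the alternative. Libraries whose omission changed it are named in parentheses after each range. For Cmpd60 at 20 months, the sign changed with no filter (Cx3cr1 0.000152) and with the covariate (Tyrobp -0.0093). With a library left out, C1qa ran from -0.053 to 0.030 (33 and 30), C1qb ran from -0.037 to 0.049 (33, 34, 28 and 30), Cx3cr1 ran from -0.034 to 0.036 (34, 36, 38, 27 and 30), P2ry12 ran from -0.059 to 0.027 (34, 36, 38, 27 and 28) and Tyrobp ran from -0.028 to 0.065 (35, 28 and 31). For genotype with vehicle, the sign changed with limma-voom (Trem2 0.14 and C1qb 0.023), with the covariate (Tyrobp -0.050), with library s139 as vehicle (C1qb 0.038) and in libraries with at least 18000 genes (Tyrobp -0.33 and Cst7 -3.30). With a library left out, Cst7 ran from -3.01 to 7.32 (s140), C1qb ran from -0.15 to 0.057 (s144, s149 and s154) and Tyrobp ran from -0.16 to 0.53 (s146 and s155). For genotype with Cmpd60, the sign changed with limma-voom (C1qb -0.017) and in libraries with at least 18000 genes (Csf1r 0.11, Trem2 -0.022, C1qb -0.15, Adgrg1 -0.014, Irf8 0.20 and Hcst -0.25). With a library left out, Trem2 ran from -0.14 to 0.45 (s141), C1qa ran from -0.19 to 0.073 (s141, s143 and s157), C1qb ran from -0.16 to 0.13 (s141), Apoe ran from -0.16 to 0.024 (s143 and s157), Tyrobp ran from -0.72 to 0.40 (s152) and Irf8 ran from -0.83 to 0.15 (s152). For Cmpd60 in APPSWE mice, the sign changed with limma-voom (Tyrobp 0.081), with the covariate (Tyrobp 0.11 and Apoe 0.024), with library s139 as Cmpd60 (Apoe 0.021) and in libraries with at least 18000 genes (Tmem119 -0.029, Cst7 2.76, Apoe 0.017 and Cd33 0.15). With a library left out, Tmem119 ran from -0.015 to 0.34 (s140), Cst7 ran from -7.32 to 2.44 (s140), Cd33 ran from -1.11 to 0.041 (s140), C1qa ran from -0.22 to 0.031 (s141 and s145), Apoe ran from -0.11 to 0.061 (s143 and s146), P2ry12 ran from -0.0065 to 0.26 (s145) and Tyrobp ran from -0.57 to 0.31 (s146, s147 and s148). For Cmpd60 in littermates, the sign changed with the covariate (Apoe 0.029) and in libraries with at least 18000 genes (Trem2 -0.063, Tyrobp -0.57 and Irf8 -0.11). With a library left out, Apoe ran from -0.11 to 0.063 (s150, s156 and s158), Csf1r ran from -0.019 to 0.15 (s152) and Tyrobp ran from -0.25 to 0.68 (s152). For the interaction, the sign changed with limma-voom (Csf1r -0.013, Trem2 -0.020 and C1qb -0.040), with library s139 as Cmpd60 (Apoe 0.037) and in libraries with at least 18000 genes (Tyrobp 0.28, Cst7 0.70, Apoe 0.044 and Cd33 0.053). With a library left out, Cst7 ran from -9.92 to 0.43 (s140), Apoe ran from -0.11 to 0.077 (s140, s143, s146, s151 and s157), C1qb ran from -0.12 to 0.20 (s141, s144 and s149), Csf1r ran from -0.089 to 0.15 (s146, s147, s148, s149, s153, s155, s156 and s158) and Tyrobp ran from -0.99 to 0.12 (s152). The causes were not tested.

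No paired analysis was possible because each library has a number of its own.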
